A study of Mus musculus with 30 samples.

Results

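The genes described here are those of the small nucleolar RNAs, the Cajal body RNAs, the Y RNAs and the vault RNA. They were chosen by symbol: every gene whose symbol in the probe annotation starts with Snora, Snord, Scarna, Rny and a digit, or Vaultrc. No level enters this rule, but it was set with earlier results of these data known. The list as a whole was therefore given no p-value. The rule found 57 of 19937 genes on the array. They were 31 C/D box and 20 H/ACA box small nucleolar RNA genes, 3 Cajal body RNA genes, the Y RNA genes Rny1 and Rny3, and the vault RNA gene Vaultrc5. The tests kept 55 of the 57. Snord61 and Snord82 stayed near the lower end of the signal range in every group and were removed by the filter on low signals. Across the 6 control groups Snord61 averaged 1.56 to 1.96 and Snord82 1.78 to 1.94 (log2 signal).

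Small nucleolar RNAs guide the chemical modification and the cleavage of ribosomal RNA: C/D box RNAs direct ribose methylation and H/ACA box RNAs direct the conversion of uridine to pseudouridine. In mammals most are cut from introns of host genes, many of which encode ribosomal proteins, while Cajal body RNAs guide modification of the RNAs of the spliceosome. Y RNAs bind the Ro60 and La proteins, vault RNA belongs to the large vault particles, and both kinds are made by RNA polymerase III from genes of their own.

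The study hybridised RNA of mouse primordial germ cells, from which oocytes and spermatogonia arise, to 30 Affymetrix arrays in 10 groups of 3. Controls carried the genotype Ring1+;Rnf2+ and were sampled in both sexes at E11.5, E12.5 and E13.5. The other genotype, Ring1+;Rnf2delta, written Rnf2delta below, was sampled in both sexes at E11.5 and E12.5. All embryos had a mixed background of 129/Sv and C57BL6J and the reporter transgene Oct4(deltaPE)-GFP, active in germ cells, by whose fluorescence the cells were sorted. Each sample held RNA of 500 cells, amplified by PCR before labelling. Rnf2 encodes a ubiquitin ligase of Polycomb repressive complex 1. The labels used here name neither a Cre driver nor the extent of the deletion. Nor do they state that the 3 samples of a group are from different embryos. The p-values therefore refer to the spread among the samples of a group, and this spread may be technical.

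Before the members, the arrays need a description. At E12.5 the Rnf2 probe set read 5.21 to 5.68 on control male arrays and 4.09 to 4.46 on Rnf2delta male arrays, against 5.08 to 5.71 and 4.47 to 5.0 in females. Its signals at E11.5 did not separate the male groups: 4.79, 4.13 and 4.70 on control arrays, 4.01, 4.11 and 4.57 on Rnf2delta arrays. The female groups of E11.5 stood apart, with 4.56, 4.61 and 4.46 for control against 3.96, 3.81 and 4.04 for Rnf2delta. The 6 E12.5 female arrays were less alike within their groups than the other 24. When limma estimated 1 reliability weight per array, controls of this stage and sex received 0.31 to 0.58 and Rnf2delta 0.50 to 0.84, against 0.51 to 1.61 elsewhere. The 10 germ cell markers averaged 6.61 to 7.10 on every array, and the 9 measured markers of gonadal supporting cells averaged 2.42 to 3.08. The 2 measured erythroid markers averaged 6.25 on Rnf2delta E12.5 male replicate 3 and at most 3.11 on any other array.

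Averaged over the 55 measured members, the control E12.5 female arrays had the highest signal of the study. The mean log2 signal on the control arrays of that stage and sex was 5.22, 5.21 and 5.32, and that on the Rnf2delta arrays was 4.67, 4.67 and 4.72. The other 24 arrays lay between 4.61 and 5.14. All 3 controls thus stood above every one of these 24 arrays, and the 3 Rnf2delta arrays lay inside their range. Without the Y and vault RNA genes the controls read 5.02 to 5.11 and no longer stood clear, since the 24 others reached 5.08. After quantile normalization they read 5.26 to 5.39, above the 5.13 reached elsewhere.

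**Figure D1:**
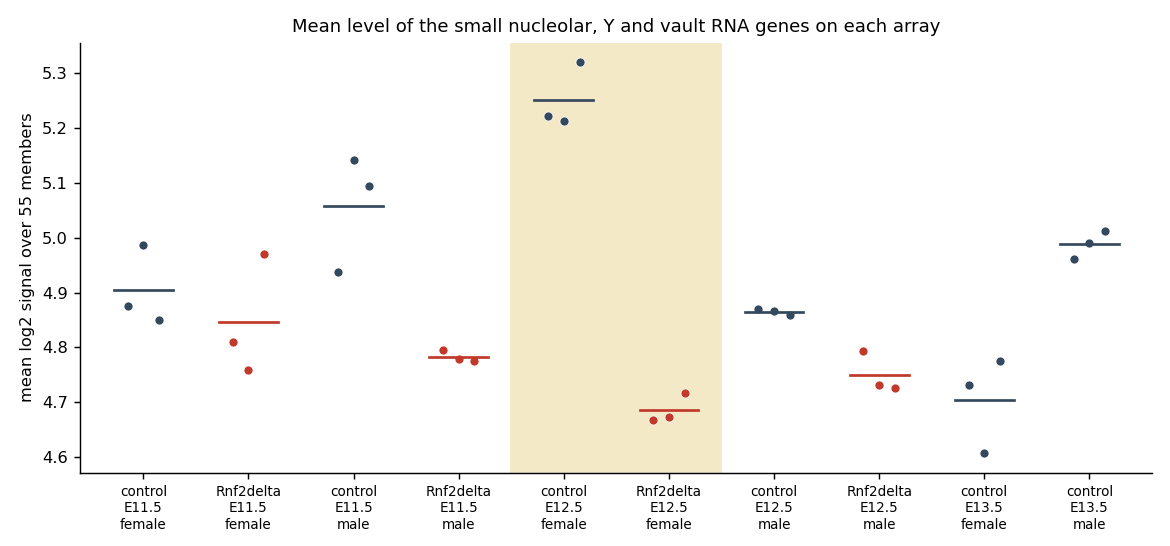
Mean log2 signal over the 55 measured members on each array (y axis), by group (x axis); points are arrays, lines are group means, dark blue is control, red is Rnf2delta, and the shaded band holds the E12.5 female groups. The 3 control E12.5 female arrays lie at 5.21 to 5.32 and the 3 Rnf2delta arrays beside them at 4.67 to 4.72.

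In E12.5 females, 24 of the 55 members fell in Rnf2delta against control and 1 rose (moderated test in limma, Benjamini-Hochberg adjusted p under 0.05 over all 15180 genes). Over all genes tested, 2.16% were called lower and 7.73% higher in this comparison. These arrays varied more within their groups than the others, and on simulated data with that spread equal weights made many more false calls than the threshold allows. The calls of this comparison therefore cannot be read at the nominal error rate, and those with array weights are given further on. The median log2 change was -0.63 over the members and 0.05 over all genes. These are amounts per unit of total signal, so fewer cells holding an RNA and less of it per cell cannot be told apart.

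The polymerase III transcripts were among the members that differed most between the genotypes. Vaultrc5 read 6.39, 5.93 and 7.04 on the control E12.5 female arrays and 3.52, 3.44 and 4.93 on the Rnf2delta arrays, so the groups did not overlap. It fell by 2.49 ± 0.33 (SE; adjusted p = 1.5e-05). Its control arrays here lay above all 24 arrays of other stages and sexes, which read 3.27 to 5.54, while the Rnf2delta arrays lay within that range. Rny3 showed the same arrangement. It read 9.32, 9.19 and 9.19 in controls and 7.60, 7.0 and 8.02 in Rnf2delta, and 6.89 to 8.28 on the 24 other arrays. It fell by 1.70 ± 0.22 (adjusted p = 8.5e-06). Rny1 was high in both genotypes. Its controls read 10.38, 9.97 and 10.45 and its Rnf2delta arrays 8.96, 8.22 and 9.25. The highest of the 24 others read 8.61, below all 3 controls and 2 of the Rnf2delta arrays. Rny1 fell by 1.46 ± 0.30 (adjusted p = 0.002), a call lost with array weights (0.051) and with only these 2 groups in the fit (0.067).

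**Figure D2:**
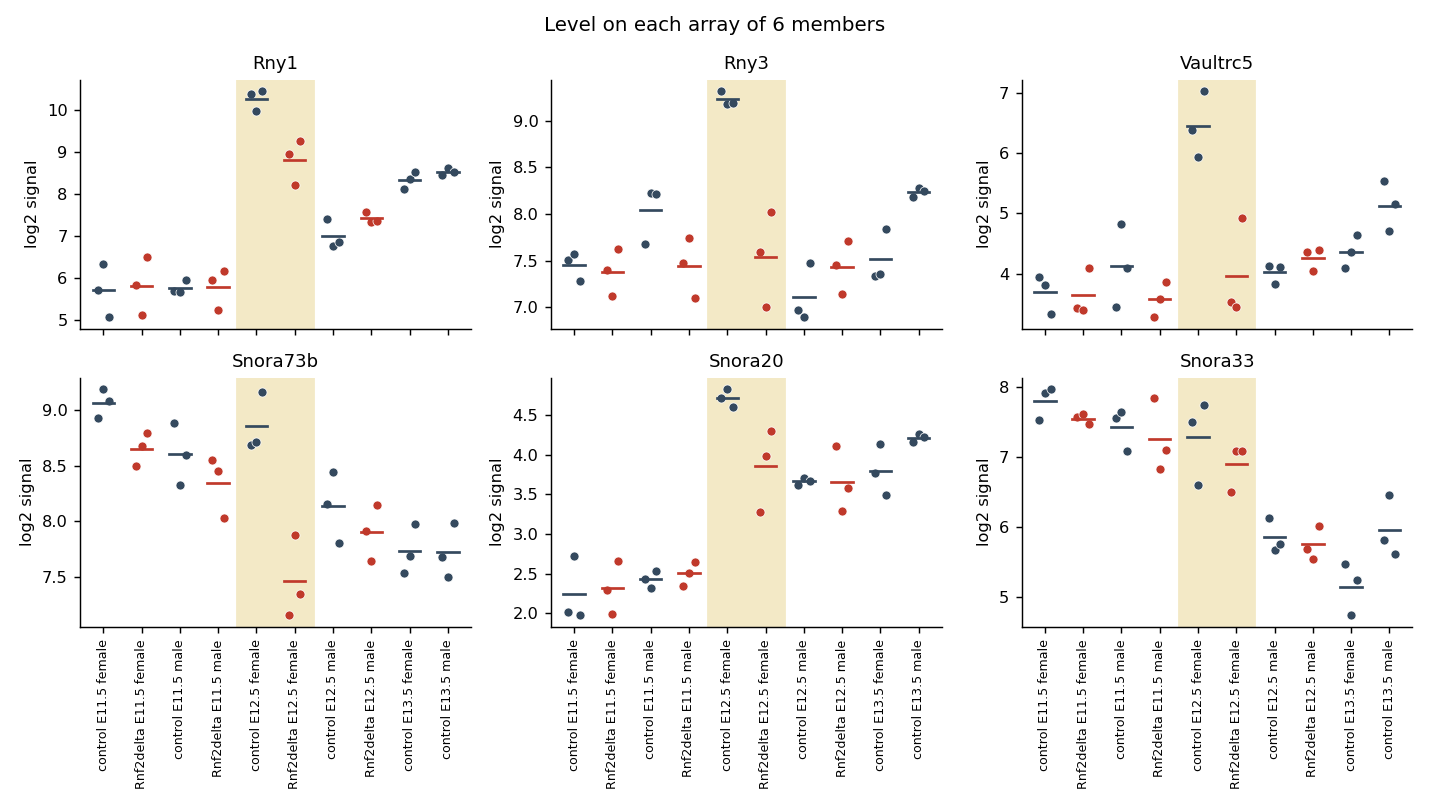
Log2 signal on each array (y axes) of Rny1, Rny3, Vaultrc5, Snora73b, Snora20 and Snora33, by group (x axes); points are arrays, lines are group means, dark blue is control, red is Rnf2delta, and the shaded band holds the E12.5 female groups. Control E12.5 female arrays of Rny1, Rny3, Vaultrc5 and Snora20 lie above all 24 arrays outside the band, and Snora33 falls from E11.5 to E13.5.

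Of the 20 H/ACA box members, 13 fell, 1 rose and 6 did not pass. Snora73b and Snora73a, RNAs of the U17 family that act in cleavage of the ribosomal RNA precursor rather than its modification, lie close together in the host gene Snhg3. Snora73b read 8.69, 8.71 and 9.16 in controls and 7.15, 7.88 and 7.35 in Rnf2delta. It fell by 1.40 ± 0.20 (adjusted p = 4.5e-05), and Snora73a fell by 1.17 ± 0.18 (adjusted p = 7.5e-05). On the other 24 arrays Snora73b read 7.49 to 9.19, which takes in all 3 controls and 1 of the Rnf2delta arrays. The Snora73 copies are near identical in sequence, so their probe sets may share signal. Snora52, from an intron of Rplp2, read 9.12, 8.48 and 9.07 in controls and 7.38, 7.51 and 7.89 in Rnf2delta, and it fell by 1.29 ± 0.19 (adjusted p = 7.1e-05). Its control arrays were high against the 6.80 to 7.79 seen elsewhere.

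Snora21, whose gene lies in Rpl23, fell by 1.67 ± 0.19 (adjusted p = 1.8e-06), from 5.5, 5.33 and 5.20 to 3.97, 3.79 and 3.25. It has 2 probe sets, and with their mean in place of the brighter one the change was -0.73 and the call was lost (0.058). Snora3, from Rpl27a, fell by 0.99 ± 0.13 (adjusted p = 1.3e-05). Its Rnf2delta arrays, at 6.55, 6.72 and 6.87, lay below every one of the 24 other arrays. The remaining falls of this class were those of Snora74a, Snora16a, Snora7a, Snora20, Snora44, Snora23, Snora70 and Snora2b, between -1.38 and -0.51. Snora41, from Eef1b2, was the member that rose: it read 2.29, 2.39 and 2.08 in controls and 3.78, 2.70 and 3.07 in Rnf2delta (0.93 ± 0.28, adjusted p = 0.035), a call lost with array weights (0.32). Its control arrays lay near the lower end of the signal range, so the size of this change is not exact.

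Of the 29 measured C/D box members, 6 fell and 23 did not pass. Snord118, the U8 RNA needed for maturation of the large-subunit ribosomal RNAs and transcribed from its own gene, read 2.32, 3.61 and 4.35 in controls and 2.19, 1.92 and 2.27 in Rnf2delta. It fell by 1.29 ± 0.28 (adjusted p = 0.0036), and its lowest control array lay next to the Rnf2delta arrays. Snord118 passed the filter's array cut, which lay at 2.20 to 2.40, on 7 of the 30 arrays. Its Rnf2delta arrays sat at the lower end of the signal range, so the size of the difference is not exact. Snord15a and Snord15b, neighbouring RNAs in Rps3 and open to shared signal, fell by 1.53 ± 0.31 (adjusted p = 0.0023) and 1.23 ± 0.20 (adjusted p = 2.1e-04). The Snord15a control arrays read 5.96, 3.94 and 4.26. Snord49b, Snord87 and Snord8 fell by 1.28, 1.27 and 0.64. Snord14e, of the U14 family that acts in processing of the small-subunit ribosomal RNA, did not pass (-0.88 ± 0.31, adjusted p = 0.071). Neither did Snord16a (-0.38) nor Snord104 (-0.29). Snord104 was nevertheless low in both genotypes of this stage and sex, at 6.58 to 7.61 against 7.64 to 8.91 on the other 24 arrays. Of the Cajal body RNAs, Scarna17 and Scarna13 fell by 0.77 ± 0.17 and 0.63 ± 0.20, and Scarna8, at 1.85 to 2.73 on these 6 arrays, did not pass (0.25).

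**Figure D3:**
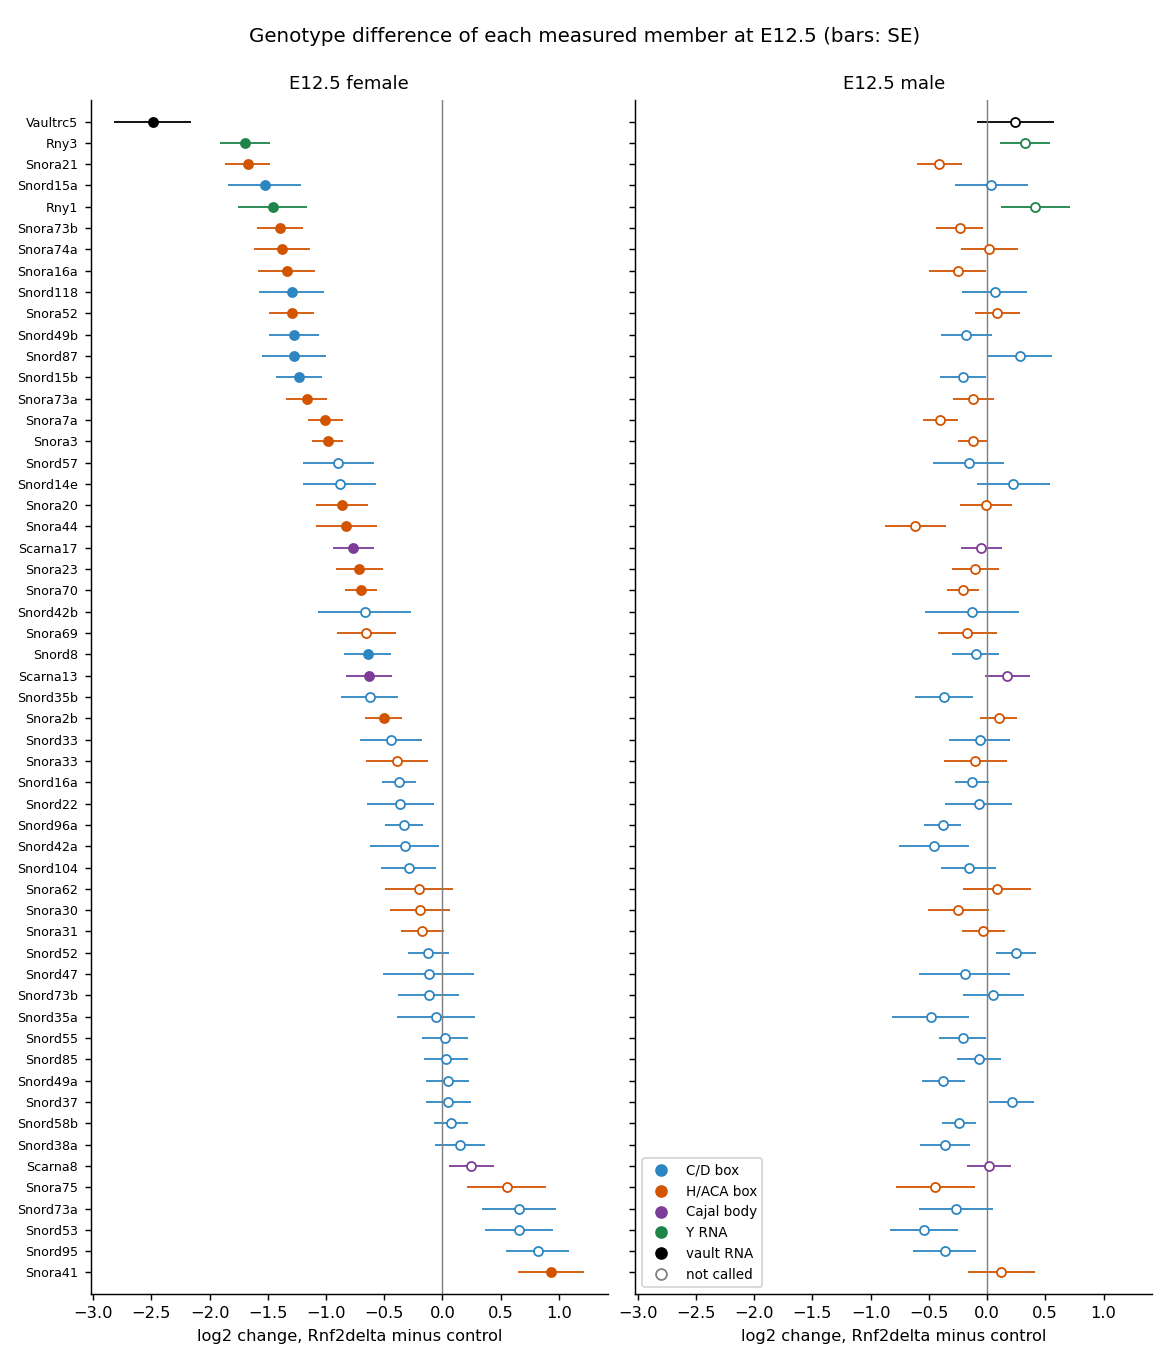
Log2 change, Rnf2delta minus control, of each of the 55 measured members (rows) in E12.5 females (left) and E12.5 males (right); bars are SE, filled points were called at an adjusted p under 0.05, and colours are RNA classes. In females 24 members are called lower and 1 higher, and in males 0 are called.

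The changes were set beside the length of the RNAs and their signal. Of the 28 members whose RefSeq record has 100 bases or more, 19 fell and 1 rose, with a median change of -0.91. Of the 27 shorter ones 5 fell, with a median of -0.29. Across the 55 members, which share arrays and labelling, Spearman's rho between length and change was -0.52, and between the mean signal over the 30 arrays and the change it was -0.47. Length and signal were not separated. The length is that of the RefSeq record, which can exceed the mature RNA; the record of Vaultrc5 has 345 bases. Length and class overlap, because C/D box RNAs are the shorter class, with records of 45 to 148 bases against 61 to 205 for H/ACA box RNAs.

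The hosts of these RNAs were looked at next. Of the 55 members, 51 lie inside another gene in the RefSeq annotation, and 25 such hosts were measured, forming 28 host and member pairs. In E12.5 females 0 of the 25 hosts were called by limma with equal or array weights, 3 had an unadjusted p under 0.05, and the median host change was 0.10, while 11 of the paired members fell. Rpl23, Rplp2 and Rps3 changed by 0.18, 0.16 and 0.09, against -1.67, -1.29 and -1.53 for Snora21, Snora52 and Snord15a. A probe set inside an intron cannot tell the mature small RNA from the unspliced host transcript. Hosts were assigned by the position of the gene, and the positions of the probe sets were not checked. Snora21 and Snora3 have 2 probe sets each, so the brighter one used here may lie outside the named host. The identifier of the one used for Snora21 falls among those of members on chromosome 7, while the Snora21 gene is on chromosome 11. That of Scarna17, a gene on chromosome 18 with 1 probe set, falls next to that of Snord22 on chromosome 19.

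**Figure D4:**
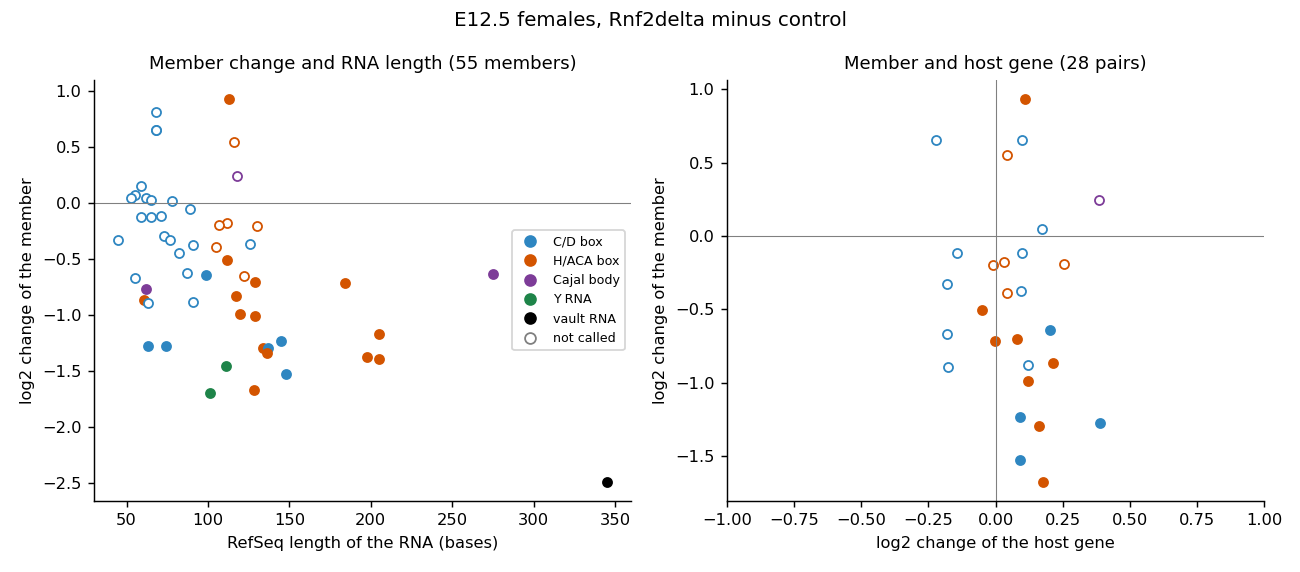
Genotype change of the members in E12.5 females (y axes, log2, Rnf2delta minus control) against the length of the RefSeq record in bases, which can exceed the mature RNA (left, 55 members) and against the log2 change of the host gene (right, 28 pairs); filled points were called, and colours are RNA classes. Host changes stay within -0.22 and 0.39 while member changes reach -1.67 in the pairs.

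How firmly these falls stand depended on the arrays of this stage and sex. With array weights 14 members fell and 0 rose (0.231% and 1.44% of all genes), and with only these 2 groups in the fit 4 fell; Vaultrc5, Rny3 and Snora73b kept their call in all 12 alternatives run on this scale. The 10 that fell with equal weights but did not pass with array weights were Rny1, Scarna13, Scarna17, Snora2b, Snora20, Snora23, Snora44, Snora70, Snord8 and Snord87. On simulated data with 200 changed genes, 28.2% of the calls with array weights were false in this comparison. The 14 calls with array weights therefore cannot be read at the nominal error rate either. Centring each array on its own median over the members removes their common shift, so a near-even split is built in. The counts were then 14 higher and 14 lower, against 1 and 24 on the deposited scale. They do not bear on how firmly the falls stand. Of the 10 germ cell markers, 5 were also lower in Rnf2delta with equal weights and 0 with array weights (median -0.37; array means 6.94 to 7.10 in controls and 6.61 to 6.92 in Rnf2delta), and their part in the result was not tested.

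The other genotype pairs gave smaller differences. At E11.5 in females, at E11.5 in males and at E12.5 in males 0 members were called, where 0.553%, 0.718% and 0.962% of all genes were. An unadjusted p under 0.05 was reached by 2, 6 and 4 members, and an adjusted p under 0.05 with array weights by 0, 3 and 0. The shares of all genes at these thresholds are not given here, so these counts are not read as a result about the members. The median changes over the members were -0.07, -0.26 and -0.12, against 0.02, -0.002 and 0.01 over all genes. In E11.5 males, where the Rnf2 signal overlapped between the genotypes, 47 of the 55 members lay below 0. There Snora21 read 5.18, 5.18 and 4.85 in controls and 4.42, 4.84 and 3.96 in Rnf2delta, without overlap, but did not pass (-0.66 ± 0.19, adjusted p = 0.14, and 0.04 with array weights). Snora70 (-0.44) and Snord35b (-0.73) did not pass either, with adjusted p of 0.18 and 0.24, and of 0.036 and 0.028 with array weights. The next smallest p here were those of Snord96a (-0.46) and Rny3. The smallest p in E11.5 females belonged to Snora30 (-0.54), Snora44 (-0.50), Snora73b (-0.41), Snord38a (0.35) and Snora21 (-0.32). In E12.5 males they belonged to Snora44 (-0.62), Snora21 (-0.41), Snora7a (-0.40), Snord96a (-0.38) and Snord49a (-0.37). For Vaultrc5 the differences were -0.06, -0.55 and 0.24 in the 3 pairs, for Rny3 -0.07, -0.60 and 0.32, and for Rny1 0.11, 0.02 and 0.41. None of the 9 passed.

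When these 3 pairs were averaged in 1 contrast of 9 Rnf2delta against 9 control arrays, 2 members were lower and 0 higher (0.876% of all genes were lower and 4.13% higher). This contrast uses no E12.5 female array in its means and was added after the data had been seen. Snora44, from Snhg12, fell by 0.60 ± 0.15 (adjusted p = 0.014) and Snora21 by 0.47 ± 0.11 (adjusted p = 0.0097). Both kept their call in each of the 22 alternatives, which did not include the other probe set of Snora21. Next by p, without passing, came Snora7a (-0.27), Snora73b (-0.30) and Snord35b (-0.36). The median over the members was -0.14 against 0.00 over all genes, and 48 of 55 lay below 0.

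The test of the difference between pairs separated a few members. The genotype effect in E12.5 females minus that in E12.5 males was called for 6 members, all lower, against 0.0791% of all genes lower and 0.217% higher. They were Vaultrc5 (-2.73 ± 0.47, adjusted p = 0.0082), Rny3 (-2.02 ± 0.31, adjusted p = 0.0026), Rny1, Snora52, Snora21 and Snora3. Snora73b did not pass (-1.16 ± 0.28, adjusted p = 0.066). The effect in E12.5 females minus that in E11.5 females was called for 4 members, all lower: Vaultrc5 (-2.43 ± 0.47), Rny3 (-1.62 ± 0.31), Snora21 and Snora3 (0.0461% of all genes were lower and 0.0988% higher). With array weights Vaultrc5 and Rny3 alone kept their calls between the sexes, and 0 members were called between the stages. When the fit held no other groups, 0 were called in either. Single arrays moved these counts. Between the sexes, leaving out any one of the 6 male arrays gave 2 to 4 members, leaving out Rnf2delta female replicate 1 gave 3, control female replicate 3 gave 4, control female replicate 2 gave 12 and Rnf2delta female replicate 3 gave 14. Between the stages, leaving out any Rnf2delta E11.5 array gave 1 or 2, control E11.5 replicate 2 gave 0, and control E12.5 replicate 2 or Rnf2delta E12.5 replicate 3 gave 10.

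Set against the 24 arrays of other stages and sexes, the E12.5 female arrays of both genotypes held members outside the range. All 3 control arrays lay above all 24 for 9 of the 55 members (16.4%), namely Rny1, Rny3, Vaultrc5, Scarna17, Snora20, Snora52, Snora69, Snord15b and Snord87. The same held for 97 of the 15125 other genes (0.641%). They lay below all 24 for 1 member, Snord104, and for 573 other genes (3.79%). All 3 Rnf2delta arrays lay below the 24 for 4 members, Snora3, Snora7a, Snord8 and Snord104 (7.27%), against 315 other genes (2.08%), and above them for 0 members and 167 other genes. Over the 10 group means, 23 members were highest in control E12.5 females and 15 lowest in Rnf2delta E12.5 females, and a further 15 were lowest in control E13.5 females. Each of these groups is 1 stage, sex and genotype, so a property of the arrays and one of the cells cannot be told apart.

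Changes between E11.5 and E13.5 use no E12.5 array in their means, but those arrays enter the estimate of the spread. In control females 6 members rose and 15 fell over these days (14.2% of all genes were higher and 12.0% lower), and in control males 4 rose and 6 fell (5.32% and 5.64%), or 6 and 10 with array weights. The female and the male comparison share no array in their means. The 2 measured mitochondrially encoded genes averaged 10.63 to 10.81 on the female arrays of E11.5 and 9.50 to 9.65 on those of E13.5, and 10.70 to 10.79 and 9.84 to 9.90 in males. On the E12.5 arrays of both genotypes these genes averaged 10.78 to 10.94 in females and 9.69 to 10.003 in males. E12.5 females thus lay near E11.5, and E12.5 males near E13.5. In both sexes the comparison of E11.5 with E13.5 ran along this division of the arrays. The male comparison is therefore not read as a repeat of the female one that is free of it. The part of this division in the result was not tested. In the same direction in both sexes 9 of 55 members (16.4%) were called, 3 up and 6 down, which is 9 of the 21 called in females and 9 of the 10 called in males. Of all 15180 genes tested, 446 were called up and 526 down in both sexes. With 23 called in opposite directions these make up 6.55%.

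Rny1 rose most of the members in each sex. It read 5.72, 6.32 and 5.05 in E11.5 females and 8.11, 8.36 and 8.53 in E13.5 females, a rise of 2.63 ± 0.30 (adjusted p = 1.6e-07). In males it went from 5.68, 5.67 and 5.95 to 8.45, 8.61 and 8.53, a rise of 2.77 ± 0.30 (adjusted p = 2.7e-07). All 12 arrays of E11.5, Rnf2delta included, read 5.05 to 6.50, and E12.5 male arrays lay between the stages at 6.76 to 7.56. The genotypes did not differ past the threshold at E11.5 or in E12.5 males. Rny3, the other Y RNA, did not pass in either sex over the same days (0.06 and 0.20). Vaultrc5 rose in males (1.01 ± 0.33, adjusted p = 0.046, lost in 5 of 9 alternatives) and did not pass in females (0.67).

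Snora20, from an intron of the chaperonin gene Tcp1, rose by 1.55 ± 0.22 in females and by 1.78 ± 0.22 in males (adjusted p = 5.5e-06 and 3.3e-06). Its arrays read 1.98 to 2.73 in control germ cells at E11.5, near the lower end of the signal range, and 3.49 to 4.26 at E13.5. Tcp1 itself rose by 0.31 ± 0.10 in females (adjusted p = 0.024) and did not pass in males (0.30, adjusted p = 0.056). Snord49b rose by 0.74 ± 0.22 and 1.04 ± 0.22, and its female call was lost without E13.5 replicate 3 (0.097). Snora30, from Srcap, rose in females (0.93 ± 0.26, adjusted p = 0.0084, lost without E13.5 replicate 1 or E11.5 replicate 2) and did not pass in males. Snora21 rose by 0.72 ± 0.19 in females (adjusted p = 0.0056) and Scarna17 by 0.52 ± 0.17.

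Snora33, from an intron of the ribosomal protein gene Rps12, fell furthest. In females it went from 7.53, 7.92 and 7.98 to 5.47, 4.74 and 5.25, and it fell by 2.66 ± 0.27 (adjusted p = 3.0e-08). In males it went from 7.56, 7.65 and 7.09 to 5.82, 6.47 and 5.62, and it fell by 1.47 ± 0.27 (adjusted p = 4.3e-04). Rps12 did not pass in either sex (-0.27 with an adjusted p of 0.052 in females, and -0.15 in males), though in females it did with array weights (0.028). In E12.5 males Snora33 read 5.67 to 6.13 in controls, and it fell there by 1.58 ± 0.27 from E11.5 (adjusted p = 0.0022). In E12.5 females it read 7.5, 6.61 and 7.75 in controls and 6.51, 7.10 and 7.09 in Rnf2delta. Snora33 thus divided the arrays as the mitochondrially encoded genes did, with E12.5 females near E11.5 and E12.5 males near E13.5. The part of this division in its changes was not tested.

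The other members that fell in both sexes were Snora73b (by 1.34 and 0.88), Snora73a (by 0.99 and 0.68), Snord57 (by 1.33 and 1.13), Snord38a (by 1.12 and 1.07) and Snora70 (by 0.52 and 0.63). In males the call of Snora73a was lost without E13.5 replicate 2 or E11.5 replicate 1, and that of Snord57 in 3 of 9 alternatives. Snord57 lies in Nop56, which encodes a core protein of C/D box particles; Nop56 fell by 0.61 ± 0.12 in females (adjusted p = 5.0e-04) and did not pass in males (-0.17). In females, without passing in males, Snora31 fell by 1.35 ± 0.19, with its host Tpt1 (by 0.43), Snord47 by 1.35 ± 0.39, with its host Gas5 (by 0.87), and Snord53 by 0.94 ± 0.29, with its host Wdr43 (by 0.69). The call of Snord53 was lost in 3 of 9 alternatives. Among members of high signal, Snord16a and Snora7a also fell in females, by 0.83 and 0.56. Of the 7 female falls that could be paired with a host, 4 had a host that also fell.

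**Figure D5:**
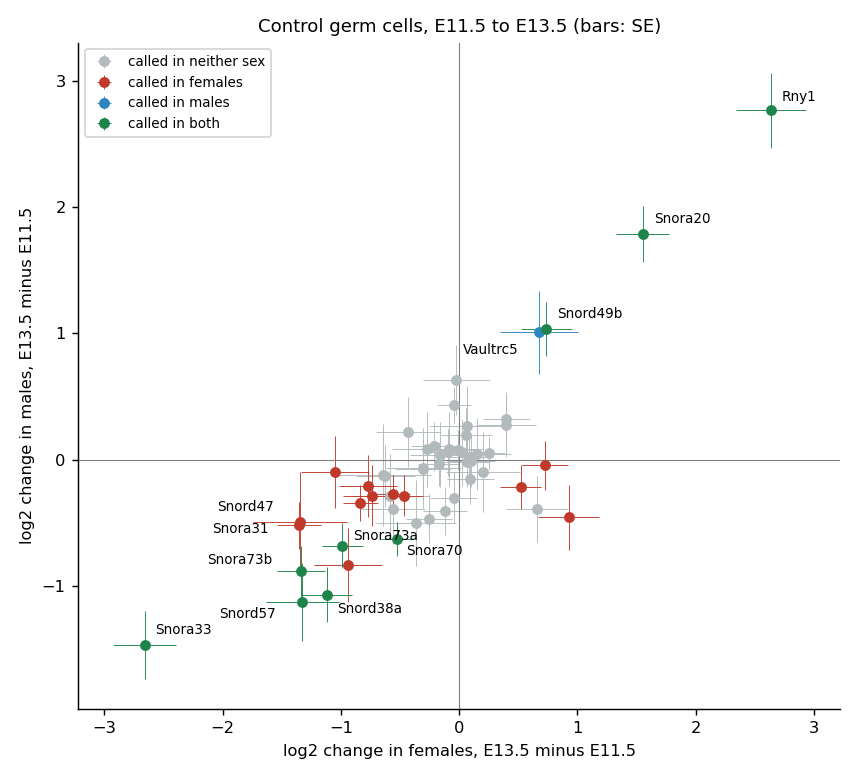
Log2 change from E11.5 to E13.5 in control females (x axis) and control males (y axis) of each of the 55 measured members; bars are SE and colours show in which sex the member was called. Rny1 and Snora20 rose in both sexes and Snora33 fell in both.

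The single steps that pass through E12.5 females rest on the control arrays described above, and they share those arrays with the genotype comparison of that stage and with each other. From E11.5 to E12.5 in control females 17 members rose and 5 fell (4.56% and 14.2% of all genes). Rny1 rose by 4.57 ± 0.30 (adjusted p = 4.1e-11), Vaultrc5 by 2.76 ± 0.33, Snora20 by 2.47 ± 0.22, Rny3 by 1.78 ± 0.22 and Snora52 by 1.68 ± 0.19. Snord95 fell by 1.63 ± 0.27, Snord104 by 1.21 ± 0.24, Snord53 by 1.01 ± 0.29, Snora31 by 0.77 ± 0.19 and Snord49a by 0.64 ± 0.19. From E12.5 to E13.5 in control females 5 members rose and 23 fell (17.0% and 4.81%): Snora33 by 2.14 ± 0.27, Vaultrc5 by 2.09 ± 0.33, Snord87 by 1.98 ± 0.28, Rny1 by 1.94 ± 0.30 and Snora52 by 1.89 ± 0.19. Snora30 rose by 1.2 ± 0.26, Snord95 by 1.07 ± 0.27, Snord104 by 0.90 ± 0.24, Snora44 by 0.72 ± 0.26 and Snord49a by 0.51 ± 0.19.

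In Rnf2delta females 5 members rose and 14 fell over the first step (6.96% and 11.7%). Rny1 rose there by 3.0 ± 0.30, Snora20 by 1.54 ± 0.22, Snora41 by 1.2 ± 0.28, Snora69 by 0.77 and Snora52 by 0.59 ± 0.19. Vaultrc5 and Rny3 did not pass (0.33 and 0.15). Snord104 fell by 1.45 ± 0.24, Snora73b by 1.2 ± 0.20, Snora70 by 0.97 ± 0.14, Snord15a by 0.97 ± 0.31 and Snora31 by 0.90 ± 0.19. The test of the difference from control females over this step is that of the genotype effects between the stages, and it called Vaultrc5, Rny3, Snora21 and Snora3, and 0 members with array weights. Rny1, Snora20, Snord104 and Snora73b were not called in it.

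The difference between the sexes in these steps was not tested. From E11.5 to E12.5 in control males 2 members rose and 5 fell (0.962% and 1.65%). Snora20 rose by 1.24 ± 0.22, and Rny1 by 1.23 ± 0.30, a call lost in 4 of 9 alternatives. Rny3 fell by 0.93 ± 0.22 there, also lost in 4 of 9. Snora33 fell by 1.58, Snord38a by 0.97 ± 0.21, Snord35b by 0.91 ± 0.25, a call lost in 7 of 9, and Snora70 by 0.67 ± 0.14. Leaving out 1 array gave 4 members (E12.5 replicate 1 or E11.5 replicate 3), 3 (E11.5 replicate 2) or 5 (the other 3). From E12.5 to E13.5 in control males 2 rose and 0 fell (0.758% and 0.343%): Rny1 by 1.53 ± 0.30 and Rny3 by 1.13 ± 0.22. With array weights, and without the E12.5 female arrays in the fit, 5 rose. Next by p came Snord49b (0.73), Vaultrc5 (1.11) and Snord35b (0.78), which did not pass with equal weights. In Rnf2delta males from E11.5 to E12.5, 2 rose and 2 fell (0.152% and 0.395%): Rny1 by 1.63 ± 0.30, Snora20 by 1.15 ± 0.22, and down Snora33 by 1.51 ± 0.27 and Snord38a by 1.5 ± 0.21. Array weights, and the fit without the E12.5 female arrays, each called 7 (2 up and 5 down). Without Rnf2delta E11.5 replicate 2 the call of Rny1 was lost, without E11.5 replicate 1 those of Snora33 and Snora20, and without E12.5 replicate 1 that of Snora20.

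Between the sexes at E11.5, 0 members were called in controls (0.25% of all genes), 12 had an unadjusted p under 0.05, and 2 were called with array weights. The smallest p belonged to Snora3 (-0.42), Snord57 (-0.99), Snord15a (-1.0), Snord96a (-0.50) and Snord15b (-0.57). At E12.5 in controls 16 members were higher and 3 lower in females than in males (4.31% and 14.7%), led by Rny1 at 3.27 ± 0.30, Vaultrc5 at 2.43 ± 0.33, Rny3 at 2.12 ± 0.22, Snord87 at 1.69 ± 0.28 and Snora52 at 1.67 ± 0.19. The 3 lower ones were Snord95 (-1.70 ± 0.27), Snord104 (-0.72 ± 0.24) and Snord49a (-0.71 ± 0.19). In Rnf2delta at E12.5, 5 were higher and 8 lower (5.9% and 9.27%). Rny1 was higher in females by 1.40 ± 0.30, Snora33 by 1.14 ± 0.27, Snora69 by 1.02 ± 0.26, Snord38a by 0.77 ± 0.21 and Snord58b by 0.50 ± 0.14. Lower in females were Snord15a (-1.46 ± 0.31), Snora21 (-1.01 ± 0.19), Snord49b (-0.95 ± 0.22), Snord104 (-0.85 ± 0.24) and Snora74a (-0.80 ± 0.24).

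At E13.5, 2 members were higher and 10 lower in females than in males (7.91% and 8.37%). No array of the E12.5 females enters these means, but those arrays enter the estimate of the spread. With quantile normalization the split was 2 and 5, without the E12.5 female arrays in the fit it was 2 and 17, and leaving out 1 array gave totals of 7 (female replicate 1 or male replicate 1), 5 (female replicate 2) and 8 to 10 (the other 3). Snora30 read 6.56, 5.99 and 6.23 in females and 4.90, 4.43 and 4.74 in males, higher by 1.57 ± 0.26 (adjusted p = 7.9e-05). Snord57 read 3.28, 3.30 and 3.81 in females and 4.80, 4.28 and 4.88 in males, lower in females (-1.19 ± 0.31, adjusted p = 0.0071). Snora16a (-1.16 ± 0.25), Snord35b (-1.04 ± 0.25) and Snord96a (-0.68 ± 0.16) were also lower in females and kept their calls in all 9 alternatives. Snora74a was lower too (-0.90 ± 0.24, lost in 1 of 9). Rny3 (-0.72), Snora52 (-0.64) and Snora33 (-0.82) were lower with calls lost in 5 of 9 alternatives each, and Snora44 was higher (0.76 ± 0.26, lost in 6 of 9). The mean over the members was 4.61 to 4.78 on the female arrays and 4.96 to 5.01 on the male arrays.

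Other short RNAs outside the naming rule give a point of reference. Of 7 measured ones that are no microRNAs, 3 fell with Rnf2delta in E12.5 females, where 2.16% of all genes were called lower. The ribosomal RNA gene n-R5s136 fell by 1.88. Rnu12, a small nuclear RNA of the minor spliceosome, and Rnu3a, the U3 small nucleolar RNA, fell by 1.08 each. Rmrp and Rpph1, the RNAs of the related ribonucleases MRP and P, did not pass (-0.60 and -0.39), nor did Terc (-0.55) and Rn7sk (-0.12). With array weights n-R5s136 kept its call (adjusted p = 0.012), while Rnu12 (0.077) and Rnu3a (0.20) did not. From E11.5 to E13.5 the same 3 rose in both sexes: Rnu3a by 2.88 in females and 2.25 in males, n-R5s136 by 2.14 and 1.30, and Rnu12 by 2.08 and 1.69. Rmrp and Rpph1 rose in females by 1.5 each and did not pass in males (0.31 and 0.52). Rn7sk fell in both sexes, by 0.42 and 0.40. It read 12.46 to 13.03 on these arrays, close to the highest deposited signal of 13.39, so the size of this change is not exact. Its group means were 12.94 to 12.99 at E11.5, 13.06 and 13.18 in E12.5 females, and 12.52 to 12.61 in E12.5 males and at E13.5. From E11.5 to E13.5 Terc did not pass in either sex.

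The genes most like Rny3 in their 10 group means were Aldh1l2, Ankmy1, Prss54, H2ab1 and Olfr447, with Pearson's r of 0.962 to 0.927. All 5 averaged 2.05 to 2.27 over the arrays, near the lower end of the signal, and over the 8 groups that are not E12.5 females r was 0.753 to 0.905. For Rny1, looked at after the data had been seen, the nearest gene was Rnu12 (r = 0.970, and 0.992 over the 8 groups), and the nearest member was Snora20 (0.957 and 0.961). These 10 points share arrays and labelling, and r is a description.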

How the data were processed

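The deposited values were log2 probe-set signals of 34760 probe sets, and the submitters' processing notes name R 2.15 and affy 1.36. For the background correction, the normalization and the genome build, nothing is given in the sources used here. Array medians were 2.52 to 2.66. Of 21640 probe sets with 1 gene symbol, the brightest on average stood for each of 19937 genes; 22 further probe sets that carry a member's name among several symbols were not used. Genes above their array's 40th percentile on at least 3 arrays were kept, which left 15180.

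limma 3.58.1 (R 4.3.3) was fitted to all 30 arrays with 1 mean per group and equal weights, and p-values were adjusted by Benjamini-Hochberg over all 15180 genes with a threshold of 0.05. Errors are SE from that fit. The method was tested on simulated data with the spread of each group and 200 changed genes. False calls exceeded the nominal rate in each genotype pair, by far the most in E12.5 females with equal weights. There 68.9% of the calls were false with equal weights and 28.2% with array weights. In the other pairs, over both kinds of weights, 13.6% to 29.0% were false. The precision is limited by 3 arrays per group. Alternatives were array weights, quantile normalization, no filter, the mean of a gene's probe sets, centring on the members, only the compared groups, no E12.5 female arrays, a replicate block and leaving out each array; the last of these, array weights and quantile normalization for single members outside the genotype comparisons were chosen after seeing the data.

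Same-numbered arrays of the 2 genotypes correlated over 0.1 in all 3 pairs only at E11.5 in males (0.160, 0.124 and 0.104), where the block called 0 members, as without it. In E12.5 males the correlations were 0.184, 0.096 and 0.293, with only the middle one under 0.1.

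Members with a name in the rule were matched to RefSeq (GRCm38.p6) by gene identifier, all 57. Length and enclosing host come from that table, which gives no strand, so an enclosing gene may lie on the other strand. Member sequences were not used here. Named in the text are the Y, vault and Cajal body RNAs and those of long known role; the members called without overlap between groups, up to 10 each way by size for genotype and 5 for stage or sex, or the 5 of smallest p where under 3 passed; and the 5 genes most like Rny3. The members fixed by name and those of highest mean signal are covered in full for E12.5 females and in part elsewhere. Other members named were chosen after their values were seen. The members, lists and rules were chosen with earlier results of these data known.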

Additional observations from a re-analysis of the deposited data

Results flagged for a closer look

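The genotype effect in E12.5 females differed from that in E12.5 males, by a test of the difference in limma, for 6 members, each lower in Rnf2delta females relative to males. The differences were -2.73 for Vaultrc5 (adjusted p = 0.0082), -2.02 for Rny3 (0.0026), -1.87 for Rny1 (0.045), -1.38 for Snora52 (0.019), -1.26 for Snora21 (0.037) and -0.87 for Snora3 (0.028). Vaultrc5 and Rny3 lost the call in 1 of 18 alternatives, the fit with only the compared groups (0.11 and 0.097), and the other 4 in 6 to 14.

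The effect in E12.5 females differed from that in E11.5 females for 4 members: -2.43 for Vaultrc5 (adjusted p = 0.021), -1.62 for Rny3 (0.021), -1.35 for Snora21 (0.028) and -0.88 for Snora3 (0.039). Vaultrc5 and Rny3 lost this call in 5 of 18 alternatives, Snora21 in 9 and Snora3 in 10. Both sets of differences use the same 6 E12.5 female arrays.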

How the results depend on the processing

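The counts below are members called of 55 in limma at an adjusted p under 0.05; the causes of these shifts were not tested. Array weights gave 14 for the E12.5 female genotype comparison (25 with equal weights), 3 for E11.5 males (0), 2 and 0 for the differences between sexes and between stages (6 and 4), 4 for the mean of the 3 other pairs (2), 5 and 16 for control males from E12.5 and from E11.5 to E13.5 (2 and 10), 7 for Rnf2delta males (4) and 2 for the sexes at E11.5 (0). Fits restricted to the compared groups, which leave fewer arrays to estimate the spread, gave 4 for E12.5 females, 1 for E11.5 males and 0 for both differences. Without the E12.5 female arrays they were 1 for E11.5 males, 5 for control males from E12.5 to E13.5, 7 for Rnf2delta males, 2 for the sexes at E11.5 and 19 for those at E13.5 (12). Centring each array on the members moved the median of all genes by 0.69 in E12.5 females, gave 1 for E11.5 males and 16 and 10 for the differences, and turned Scarna13 to 0.014 (adjusted p = 0.94). The mean of all probe sets gave 3 for the difference between sexes, and quantile normalization 7 for the sexes at E13.5. The median change in E12.5 females was -0.75 after quantile normalization and -0.51 without the filter. With the replicate block 26 members were called in E12.5 females, and 6 and 5 for the differences; it moved no count by over 1.5 times. Leaving out 1 array at a time gave genotype counts of 0 to 0 in E11.5 females and E12.5 males, 0 to 1 in E11.5 males, 22 to 28 in E12.5 females and 2 to 3 for the mean of the others, with medians of -0.17 to -0.03, -0.14 to -0.09, -0.34 to -0.22 and -0.65 to -0.53 in the 4 pairs in that order. It gave 2 to 14 and 0 to 10 for the differences. For the stages it gave 20 to 24, 23 to 28 and 17 to 19 in control females (E11.5 to E12.5, E12.5 to E13.5, E11.5 to E13.5), 3 to 5, 2 to 2 and 8 to 10 in control males, 14 to 19 in Rnf2delta females and 2 to 4 in Rnf2delta males. For the sexes it gave 0 to 0, 16 to 21 and 5 to 10 in controls and 9 to 15 in Rnf2delta.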

Other observations

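The proteins that assemble with these RNAs were also measured. From E11.5 to E13.5 in control females 12 of 26 genes for proteins of small nucleolar particles and their assembly fell and 1 rose, with a median change of -0.39 on the log2 scale (limma, equal weights, adjusted p under 0.05), against 12.0% of all genes lower and 14.2% higher. Fbl, the methyltransferase of C/D box particles, fell by 0.51, Nop10, a core protein of H/ACA box particles, by 0.96, Rrp9, which binds the U3 RNA, by 1.76, and the nucleolar chaperone gene Nolc1 by 0.96. In control males 2 of the 26 fell (5.64% of all genes), Nolc1 by 0.51 and Npm1 by 0.50, and the difference between the sexes was not tested. Of 6 non-coding host genes named Gas5 or Snhg, 3 fell in females (Snhg16 by 1.62, Snhg5 by 1.12 and Gas5 by 0.87) and 0 in males, where 1 had an unadjusted p under 0.05.

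With Rnf2delta in E12.5 females 0 of the 26 particle proteins were called in either direction with equal or array weights (median 0.06), and 4 had an unadjusted p under 0.05. Of the 6 host genes 3 fell: Snhg17 by 1.21, Snhg15 by 0.90 and Snhg16 by 0.83. Snhg17 kept its call with array weights (adjusted p = 0.035). Ro60, the partner of the Y RNAs, and Mvp, the major vault protein, did not pass (-0.22 and -0.14). Of 31 genes for partners of these RNAs and for the polymerase III machinery, 3 rose and 1 fell with equal weights (7.73% and 2.16% of all genes), and 0 were called with both kinds of weights.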
